A study of Mus musculus with 2 samples.

Results

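Fragments of small nucleolar RNAs (snoRNAs) and small Cajal body RNAs (scaRNAs) were read in the 15 to 17 nt small RNA sequences of J1 mouse embryonic stem cells. A sequence was taken when its whole length matched the sense strand of a mouse gene annotated as snoRNA or scaRNA in GENCODE M21 without a mismatch. Snord83b and the genes named Snord14 plus a letter were left out. The rule took 472 of the 96471 distinct sequences of this length, and these lay in 183 of the 1524 snoRNA and scaRNA gene names that remained after the exclusions. Of these, 20 were set aside because they were also found in a small RNA of a different class, or in over 5 further genes, and 452 sequences in 178 gene names were kept. Nuclear tRNAs and the long ribosomal RNAs were not among the transcripts searched, so a kept sequence may also occur in one of these.

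Both libraries came from the J1 line (strain 129S4/SvJae, inner cell mass origin), grown on gelatin in serum replacement medium that held 1000 U/mL of LIF, a cytokine that keeps mouse stem cells undifferentiated. One culture received 3 µM SB431542, an inhibitor of the type I receptors for TGF-beta, activin and Nodal, for 24 h, and the control received an equal volume of the solvent DMSO for the same 24 h. Each group had 1 library, so no spread between cultures was measured, no test was made, and every interval below is a 95% counting interval that covers counting error only. The 15 to 17 nt reads numbered 990296 with DMSO and 517535 with SB431542, so that 1 read stands for 1.01 and 1.93 RPM, the reads in each 1000000 of this length class. The hairpins from Mir290 to Mir295, a microRNA cluster known for its expression in mouse embryonic stem cells, held 39534 reads with DMSO and 10514 with SB431542. In RNA from whole cultures, fewer cells that make an RNA and less of it per cell cannot be told apart.

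snoRNAs are stable RNAs of the nucleolus, most of which are cut from introns of host genes. The box C/D snoRNAs, named Snord, carry a C box near the 5′ end and a D box near the 3′ end and guide ribose methylation of ribosomal RNA. The H/ACA snoRNAs, named Snora, end in an ACA box and guide pseudouridylation, and scaRNAs of either kind act on spliceosomal RNAs in Cajal bodies. A few members, U3, U8, U17 and U22, are needed for cutting the ribosomal RNA precursor. Short fragments of many snoRNAs are present in small RNA libraries, where a part of them has been described as bound to Argonaute proteins.

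The RNAs that gave most reads, or that stood apart in their ratio, are printed whole below, 5′ to 3′, as GENCODE M21 gives them on the GRCm38 genome. Capitals mark the commonest fragment of each, so that its place in the RNA can be seen.
Rnu3b1 (U3), chr11:87443237-87443451, + strand: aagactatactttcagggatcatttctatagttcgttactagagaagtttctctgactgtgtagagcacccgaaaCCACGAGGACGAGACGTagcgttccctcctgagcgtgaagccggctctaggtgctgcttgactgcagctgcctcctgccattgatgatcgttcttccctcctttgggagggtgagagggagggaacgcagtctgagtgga
Snord118 (U8), chr11:69073427-69073561, + strand: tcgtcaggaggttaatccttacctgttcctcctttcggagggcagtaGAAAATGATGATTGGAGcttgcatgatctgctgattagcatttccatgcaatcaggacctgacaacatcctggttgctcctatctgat
Snord21, chr5:107904555-107904648, + strand: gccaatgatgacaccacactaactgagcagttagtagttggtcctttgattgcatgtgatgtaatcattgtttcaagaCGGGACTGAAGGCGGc
AF357428, chr12:109679945-109680013, + strand: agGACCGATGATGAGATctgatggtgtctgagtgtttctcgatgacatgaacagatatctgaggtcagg
Snora44, chr4:132309941-132310069, + strand: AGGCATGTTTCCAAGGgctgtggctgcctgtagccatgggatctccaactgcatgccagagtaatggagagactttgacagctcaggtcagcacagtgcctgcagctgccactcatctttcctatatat
Snora57, chr19:8888538-8888685, - strand: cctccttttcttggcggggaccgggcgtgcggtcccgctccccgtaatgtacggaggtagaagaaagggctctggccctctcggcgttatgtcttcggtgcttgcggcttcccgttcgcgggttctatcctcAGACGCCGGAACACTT
Snord93, chr5:23852210-23852280, + strand: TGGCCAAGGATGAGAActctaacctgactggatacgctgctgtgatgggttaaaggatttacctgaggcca

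The kept fragments made up 1572 reads with DMSO, 0.159% of the 15 to 17 nt reads (interval 0.151% to 0.167%). With SB431542 they made up 657 reads, or 0.127% (0.117% to 0.137%). Their share was thus lower with SB431542 by 1.25-fold, a log2 ratio of -0.32 (interval -0.46 to -0.19). Spliceosomal snRNA fragments, another class of nuclear RNA, had 2950 and 1227 reads and a log2 ratio of -0.33, and Snord83b had 2730 and 1134 reads and -0.33. The Snord14 genes stood at 391 and 87 reads, a log2 ratio of -1.23 (interval -1.58 to -0.89), so their interval did not meet that of the members. This value changed with the scale. The 15 to 17 nt reads of the SB431542 library were richer in G and C (mean 64.2% against 60.7%), the member fragments were not (52.9% against 52.8%), and after a correction for GC content the log2 ratio of the members was -0.01. With edgeR TMM factors, which lower every log2 ratio here by 0.49, it was -0.81. Matches to the antisense strand of the same genes, taken as background, gave 49 and 18 reads before sequences were set aside. After the same rule for setting sequences aside they gave 26 and 5 reads, or 1.65 and 0.761 for each 100 kept sense reads.

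Few RNAs carried most of these reads. Genes that shared sequences were joined into 125 groups, and 13 of these had at least 20 reads over both libraries. The 3 leading groups, U3, Snord118 and Snord21, held 58.3% of the member reads with DMSO and 56.6% with SB431542. At the other end, 101 groups had under 10 reads and 42 had a single read. A read was found for 43 of 92 Snord names, 19 of 40 Snora names and 6 of 9 Scarna names. Among the 1383 snoRNA and scaRNA genes of other names, mostly predicted genes, 110 had a kept sequence.

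**Figure D1:**
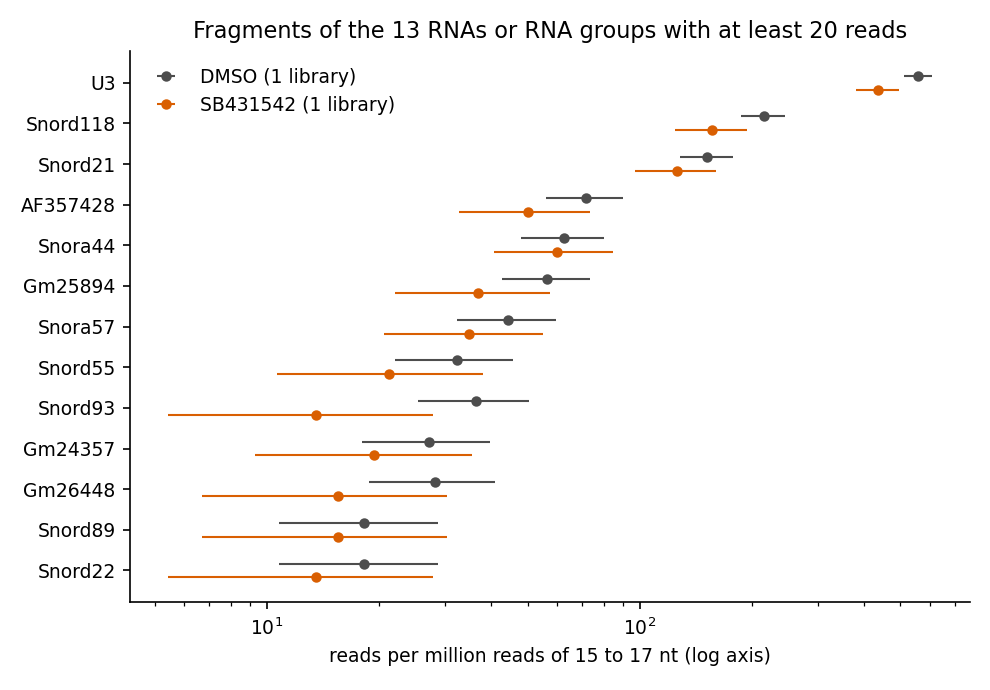
RPM of the 15 to 17 nt reads (log axis) for the 13 RNAs or groups of RNAs with at least 20 reads, in the DMSO library (grey) and the SB431542 library (orange); points are single libraries and bars are exact Poisson 95% counting intervals. U3 leads in both libraries, with 558 RPM and 437 RPM, and the orange point lies at a lower RPM than the grey point in each of the 13. Of all 441 annotated genes with at least 20 reads, 55.8% had a log2 ratio below 0.

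U3 guides early cuts of the ribosomal RNA precursor and was the most abundant source. It is a box C/D RNA, but its genes are named Rnu3 or Gm and so fall among the other names. Its fragments had 553 reads with DMSO (558 RPM) and 226 with SB431542 (437 RPM), with a log2 ratio of -0.35 (interval -0.58 to -0.13). That was 35.2% and 34.4% of all member reads, so U3 kept nearly the same place among the members in both libraries.

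The U3 fragments came from a few places in the RNA. None of the 779 reads began within 5 nt of the 5′ end, which allows a share of up to 0.385%, and none covered nt 1 to 42. Stretches were delimited where coverage reached 5% of the highest, and a read was counted where its centre fell. The stretch from nt 75 to 92 held 291 of the DMSO reads (52.6%) and 106 of the SB431542 reads (46.9%). That from nt 184 to 215 held 131 and 60 reads (23.7% and 26.5%), that from nt 148 to 171, which contains a TGATGA, held 88 and 35, and that from nt 46 to 62 held 27 and 15. All 4 stretches were present in both libraries, and the highest was the same. Within 5 nt of the 3′ end, 58 reads ended with DMSO and 36 with SB431542, or 10.5% and 15.9% of U3 reads.

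**Figure D2:**
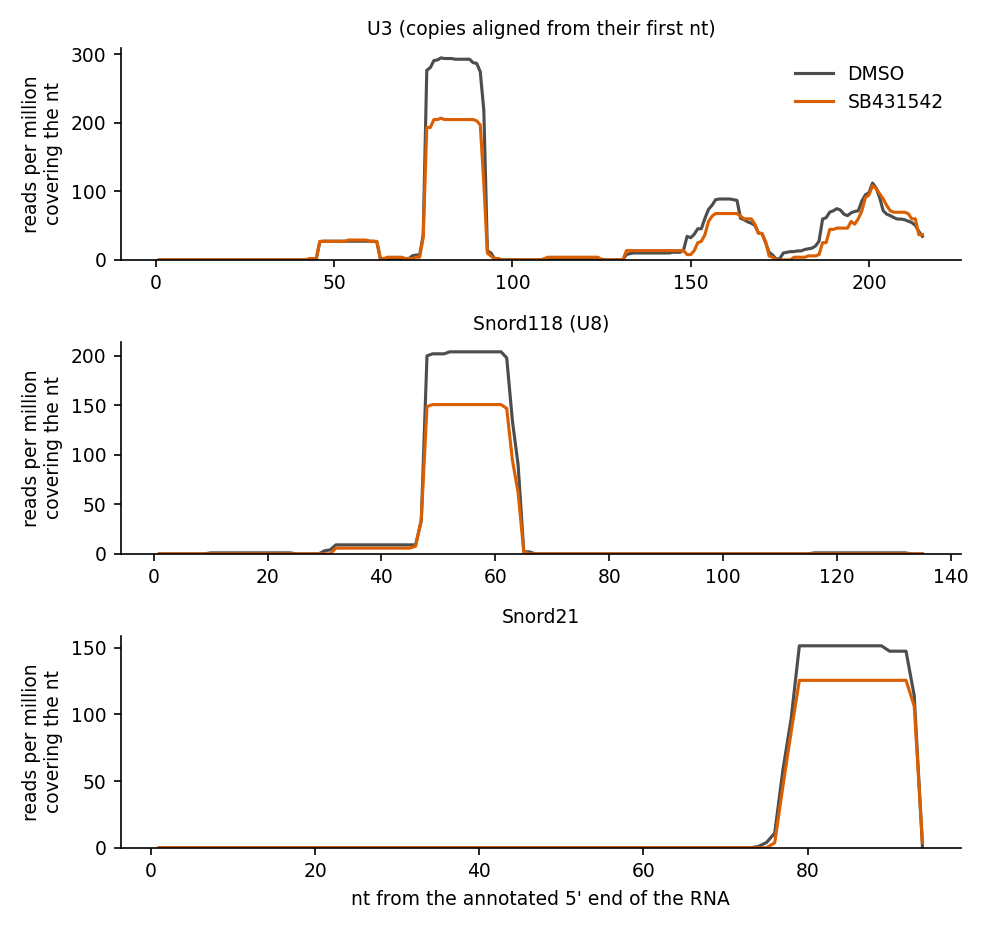
RPM that cover each nt, against the distance in nt from the annotated 5′ end, for U3, Snord118 and Snord21, with DMSO in grey and SB431542 in orange. U3 has its highest plateau between nt 75 and 92, Snord118 has 1 high plateau between nt 47 and 64, and Snord21 has reads at its 3′ end alone, at the same places in both libraries.

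The same 17 nt fragment led the U3 peak in both libraries, and the share of its shorter form differed between them. It is shown here with its shorter form and with the fragment from the same place in Rnu3a, the copy on chromosome 10; capitals mark the bases of Rnu3a that differ from Rnu3b1.
Rnu3b copies, 17 nt, from nt 76: ccacgaggacgagacgt
Rnu3b copies, 16 nt, from nt 76: ccacgaggacgagacg
Rnu3a, 17 nt, from nt 76: ccacgaggaGgagacAG
Counted from 1 at the 5′ end of the fragment, Rnu3a differs from Rnu3b1 by C10G, G16A and T17G, so the 17 nt forms of the copies can be told apart.

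The 17 nt form of the Rnu3b copies had 186 reads with DMSO and 51 with SB431542, a log2 ratio of -0.92 (interval -1.41 to -0.48). The form that is 1 nt shorter at its 3′ end had 27 reads in each library, a log2 ratio of 0.94 (interval 0.11 to 1.76). The forms share their start and their RNA, and their intervals did not overlap. Over all copies, 83.6% of the reads from nt 76 were 17 nt long with DMSO (interval 78.3% to 88.1%) and 61.4% with SB431542 (50.1% to 71.9%), while the 16 nt share was 12.6% and 37.3%. Whether another pair of cultures would give this difference in length cannot be known from 1 library each.

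The 17 nt fragment of Rnu3a had 13 reads with DMSO and 0 with SB431542, where 3 reads would stand for 5.80 RPM. Sequences found in the Rnu3b copies or their Gm-named relatives but not in Rnu3a held 425 and 172 reads, or 76.9% and 76.1% of U3 reads. Those of Rnu3a alone held 79 and 27 reads, or 14.3% and 11.9%. The Rnu3b copies lie together on chromosome 11 inside the annotated span of Tex14 and share nearly all their fragments, so single copies among them could not be separated, and values for single U3 genes are shares of divided reads. The U3 group of 11 genes also took in Gm-named genes outside that cluster through shared sequences. Over both libraries their divided reads were 83.7 for Gm24949, 77.8 for Gm24826, 36.7 for Gm23927 and 22.5 for Gm25203. Gm22865 and Gm25419 had 1.71 and 1.51. Fragments printed as those of the Rnu3b copies may also match these genes.

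Snord118, or U8, serves in the maturation of the large subunit ribosomal RNAs and came next. Its group, which shares a sequence with Gm24208, had 213 reads with DMSO and 81 with SB431542 (215 and 157 RPM), a log2 ratio of -0.45 (interval -0.85 to -0.08). Like U3, it gave no read at the 5′ end. Of its reads, 202 with DMSO (94.8%) and 78 with SB431542 (96.3%) centred within nt 47 to 64. Its 3 leading fragments all began at nt 48, held the TGATGA of the capitals printed above, and differed only at the 3′ end. The 17 nt form had 87 and 31 reads, the 16 nt form 35 and 11, and the 15 nt form 43 and 18. Unlike U3, the shares of these 3 lengths were close in both libraries, at 52.7% and 51.7% for 17 nt. The ratio of Snord118 turned with the scale: its gene value of -0.45 became 0.23 after the GC correction, -0.94 with edgeR TMM factors and -1.06 with DESeq2 size factors.

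Other RNAs of ribosome synthesis were scarcer. Snord22, or U22, from the Snhg1 gene, had 18 reads with DMSO and 7 with SB431542, and 13 of the 25 ended within 5 nt of its 3′ end. Snora73a, or U17, from the Rcc1 and Snhg3 locus, had 11 and 5 reads, and 15 of the 16 lay inside the RNA. Gm26448, a predicted gene in Rpsa, had 28 and 8 reads, all 36 of them inside the RNA, and a log2 ratio of -0.81 (interval -2.22 to 0.30). Its commonest fragment began at nt 96 and that of Snora73a at nt 98, in RNAs of 203 and 205 nt. On the list of 11 RNAs known for ribosomal RNA processing, 10 were annotated under these names and all 10 had reads, 7 had at least 20, and none of the 7 differed by 2-fold or more. The 7 include Rnu3b1 to Rnu3b4, which hold equal parts of the same divided reads, so they are not 7 separate RNAs. Over all 441 annotated genes with at least 20 reads, 6.35% were at least 2-fold higher with SB431542 and 15.2% at least 2-fold lower. The sum of the list was 800 and 325 reads, a log2 ratio of -0.36 (interval -0.55 to -0.18), of which U3 was the larger part.

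Among the Snord RNAs that guide ribose methylation, Snord21 was the most abundant. It is a box C/D RNA encoded in Rpl5, the gene of a large subunit ribosomal protein, and had 150 reads with DMSO and 65 with SB431542 (151 and 126 RPM). Its log2 ratio was -0.26, with an interval from -0.71 to 0.16 that includes 0. All 215 reads ended within 5 nt of the 3′ end, which allows a share of up to 1.40% elsewhere, and none covered nt 1 to 73. The leading forms ended at nt 93 and differed by their starts, whereas the leading forms of U8 shared a start and differed by their ends. They are printed here because they show the D box, CTGA, in capitals.
Snord21, 15 nt, from nt 79: cgggaCTGAaggcgg
Snord21, 16 nt, from nt 78: acgggaCTGAaggcgg
Snord21, 17 nt, from nt 77: gacgggaCTGAaggcgg
The 15 nt form had 53 and 18 reads, the 16 nt form 24 and 18, and the 17 nt form 35 and 17, and the interval of each ratio included 0.

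Other box C/D RNAs gave fragments of the 5′ end. Snord55 had 32 reads with DMSO and 11 with SB431542, and 42 of its 43 reads were at the 5′ end, mostly from nt 2. Snord89 had 18 and 8 reads, all from nt 4. Gm25894, a predicted snoRNA of the Snhg1 gene, had 56 and 19 reads, with 74 of 75 at the 5′ end, and Gm24357, in Taf1d, had 27 and 10 reads, all 37 at the 5′ end. The log2 ratios of these 4 lay between -0.60 for Gm25894 and -0.19 for Snord89, and the interval of each included 0. Their leading fragments are printed with that of AF357428, which is described next; capitals mark TGATGA, the consensus of the C box, which the Gm25894 fragment does not hold.
Snord55, from nt 2: gcggaTGATGAcacct
Snord89, from nt 4: gaggagTGATGAcata
Gm24357, from nt 3: atgttgTGATGAtgggc
AF357428, from nt 3: gaccgaTGATGAgat
Gm25894, from nt 1: ctacggggatgatatga

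AF357428 and Gm22981 lie on chromosome 12, between the noncoding RNA genes Rian and Mirg of the imprinted Dlk1-Dio3 region, and share most of their fragments. Together they had 71 reads with DMSO and 26 with SB431542 (71.7 and 50.2 RPM), a log2 ratio of -0.50 (interval -1.22 to 0.15). Of the 97 reads, 94 were at the 5′ end, and 93.8% began at nt 3. The 15 nt form from nt 3 had 40 and 8 reads, a log2 ratio of -1.32 (interval -2.69 to -0.27), while the 17 nt form had 21 and 14 reads, a log2 ratio of 0.37 (interval -0.74 to 1.40). From Meg3 to Mirg, 8 of 23 annotated snoRNA genes had reads, 79 and 28 in sum, nearly all from this pair. On the list of 19 snoRNAs of imprinted loci that carry Snord names, a single read, of Snord107 with DMSO, was found.

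Among the 13 groups with at least 20 reads, the one of Snord93 had the lowest ratio. It is a box C/D RNA that has been described as a source of small RNAs in other cells, and it shares most of its fragments with Mir3096, another locus on chromosome 5 that carries a microRNA name and is annotated here as a snoRNA. The pair had 36 reads with DMSO and 7 with SB431542 (36.4 and 13.5 RPM), a log2 ratio of -1.35 (interval -2.84 to -0.24). All but 3 of the 43 reads were at the 5′ end, and 72.1% began at nt 1 of the sequence printed above. After the GC correction the log2 ratio of the pair was -1.12. With a pseudocount of 5 reads neither gene passed 2-fold (log2 ratios of -0.56 for Snord93 and -0.45 for Mir3096). With the DMSO library thinned to the depth of the other, both had under 20 reads and so were not described, at log2 ratios of -1.84 and -1.47.

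**Figure D3:**
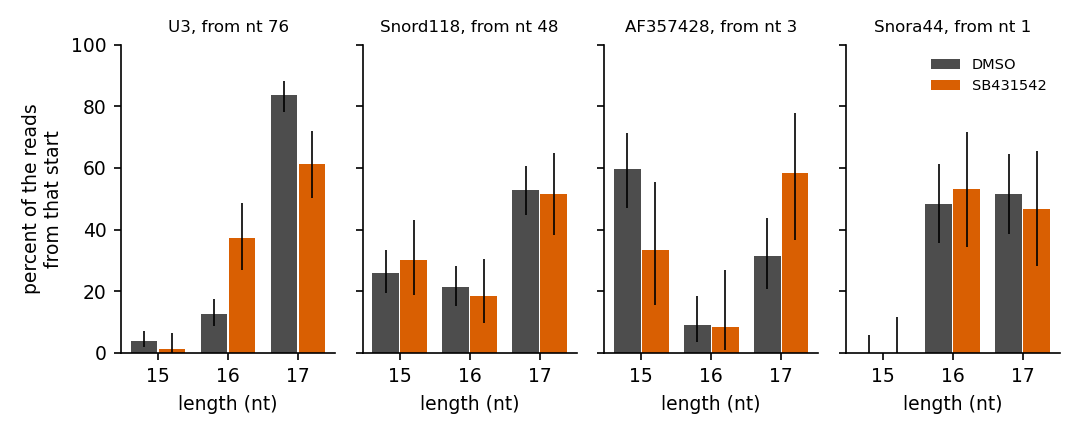
Percent of the reads that begin at the commonest start of U3, Snord118, AF357428 and Snora44, by fragment length in nt, with DMSO in grey and SB431542 in orange; bars start at 0 and lines are 95% Clopper-Pearson intervals. The 17 nt share of U3 falls from 83.6% with DMSO to 61.4% with SB431542 with intervals that do not meet, and the shares of Snord118 and Snora44 overlap between the libraries.

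The H/ACA RNAs named Snora gave fewer reads, 145 with DMSO and 72 with SB431542. Their log2 ratio was -0.07, with an interval from -0.50 to 0.34. RNAs of this kind that carry only other names are not in this sum. Snora44, from the noncoding host gene Snhg12, had 62 and 31 reads (62.6 and 59.9 RPM), a log2 ratio of -0.05 (interval -0.74 to 0.58), the highest among the 13 groups. Its 93 reads were all at the 5′ end, 98.9% of them from nt 1, and split between 16 nt (30 and 16 reads) and 17 nt (32 and 14 reads). RefSeq, on the same build, starts this RNA 12 nt further in, so that by that annotation most of each fragment would precede the RNA. Snora57, with another copy annotated as Gm26132, had 44 and 18 reads, a log2 ratio of -0.33 (interval -1.23 to 0.47). Of its 62 reads, 53 were at the 3′ end, and its leading fragment ran from nt 133 to the last nt and contains the ACA near the end of the sequence printed above. The other 8 named Snora genes, of Snora73a, Snora73b, Snora74a, Snora81, Snora64, Snora68, Snora16a and Snora17, each had at most 16 reads. RefSeq also starts Snord93 23 nt and Snord89 14 nt further in than GENCODE, while it gives the same first nt for U3, Snord21, AF357428, Gm25894, Snora57, Snord55, Gm24357, Gm26448 and Snord22, and 1 nt earlier for Snord118.

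The RNAs named Scarna gave 14 reads with DMSO and 6 with SB431542, too few for a ratio to be read (log2 interval -1.95 to 1.18). Scarna3a had 7 and 5 of them, all from nt 2, and the other 5 with reads, Scarna13, Scarna3b, Scarna9, Scarna10 and Scarna8, had 1 or 2 reads each. Over the Scarna names, 18 of 20 reads were at the 5′ end. Genes annotated as scaRNA under other names are not in these sums. Among them, Gm26083 had 3 and 1 reads, all at the 5′ end, and Gm22728 had 1 and 2, all inside the RNA. Scarna9 and Scarna10 are in the sums by name but are annotated as snoRNA.

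The classes differed in where their fragments lay. A fragment was put at an end if it began or ended within 5 nt of the annotated end. Of the Snord reads, 23.9% with DMSO (interval 20.5% to 27.7%) and 19.0% with SB431542 (14.1% to 24.8%) were at the 5′ end, and 32.7% (28.8% to 36.7%) and 38.9% (32.4% to 45.7%) at the 3′ end. Of the Snora reads, 50.3% (41.9% to 58.7%) and 51.4% (39.3% to 63.4%) were at the 5′ end, and 28.3% (21.1% to 36.3%) and 22.2% (13.3% to 33.6%) at the 3′ end. The intervals of the libraries overlapped in each of these 4 shares. They did not meet for the 3′ share of the other names, at 8.56% with DMSO (6.77% to 10.6%) and 15.6% with SB431542 (12.0% to 19.8%). Without U3, that share of the other names was 5.0% (15 of 300 reads, 2.83% to 8.11%) and 15.2% (20 of 132 reads, 9.51% to 22.4%). Of these 35 reads over both libraries, 11 were of Gm26247 and 9 of Gm23991, genes of the same 2410002F23Rik locus. For all members it was 18.9% (16.99% to 20.92%) and 24.2% (20.97% to 27.66%), with a narrow gap between the intervals.

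A single RNA decided several of them. Without Snora44 the 5′ share of Snora reads over both libraries was 13.7% in place of 50.7%, and without Snord118 that of Snord reads was 36.1% in place of 22.5%. Without U3, 70.6% of the reads of other names were at the 5′ end in place of 25.2%. Counted by RNA and not by read, the 5′ end led: it held most of the reads in 62 of the 125 groups, against 20 for the 3′ end and 36 for the inside. For Snord these counts were 22, 8 and 7 of 40 groups. Such counts weigh a group with a single read like any other, and 101 of the 125 groups had under 10 reads. Reads at both ends were found in 7 of the 125 groups, of which the 42 with a single read could not have both. Snord83b and Snord14 reads, for comparison, were at the 5′ end in 100% and 99.7% of cases with DMSO.

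**Figure D4:**
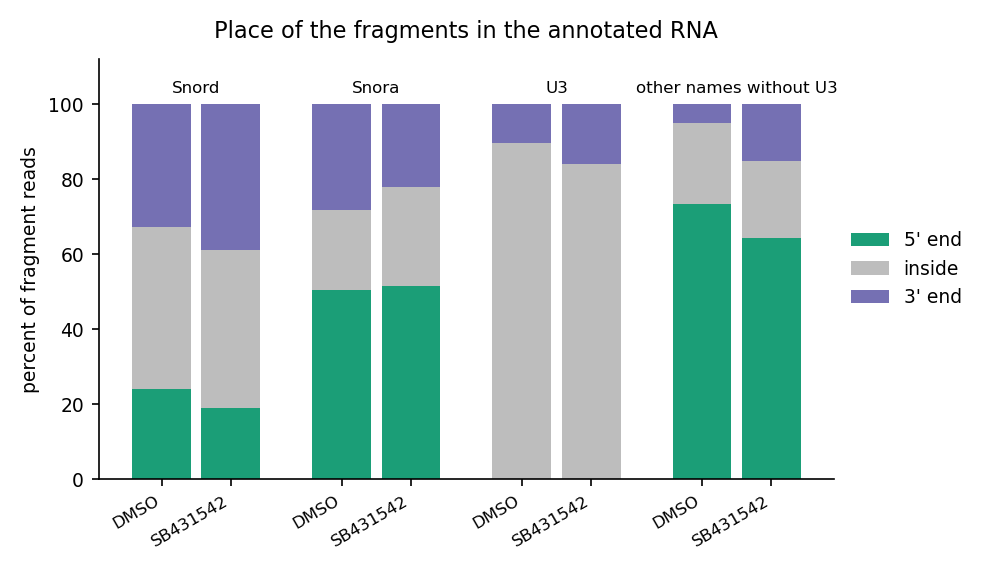
Percent of fragment reads at the 5′ end (green), inside (grey) and at the 3′ end (purple) of the annotated RNA, for Snord, Snora, U3 and the other names without U3, in each library. U3 has no 5′ end reads, the Snora reads are about 50% at the 5′ end, and 73.3% and 64.4% of the reads of other names without U3 are at the 5′ end.

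End fragments lie within 5 nt of an annotated end by definition, and their places inside that window are given here. Of the 5′ end reads of Snora, 90.0% began at nt 1, which is mainly Snora44, an RNA that RefSeq starts 12 nt further in. Those of Snord began at nt 1 (35.2%), nt 2 (36.9%) or nt 4 (19.3%). Of the 3′ end reads of Snord, 63.2% ended 1 nt before the last nt, which is mainly Snord21, and 11.2% at the last nt itself.

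The boxes lay inside many of the fragments. TGATGA, the C box consensus, searched on the sense strand, was within 53.9% of Snord reads with DMSO and 49.3% with SB431542, against 8.33% of all windows of 15 to 17 nt in the Snord RNAs that had reads. CTGA, the D box, was within 33.4% and 39.8% of the reads and 27.9% of the windows. One or the other was within 86.8% of Snord reads with DMSO and 89.1% with SB431542, against 35.8% of the windows. Snord118 and Snord21 carry much of this count. For all members without the 3 leading groups the shares were 45.6% and 44.9%, against 21.3% of the windows. None of the 217 Snora reads held CTGA, which allows a share of up to 1.38%, against 6.98% of the windows in the Snora RNAs. Of these reads, 93 were of Snora44 and 62 of Snora57, so few RNAs decide this count. No window of the Snora RNAs holds TGATGA, so no Snora fragment could hold it. In the annotation, 70 of 98 Snord gene entries hold TGATGA in their first 20 nt and 92 hold CTGA in their last 15 nt, so a fragment of either end will often contain a box.

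Within the 15 to 17 nt analysed, 17 nt was the commonest length. It is also the longest in the files used, so longer fragments could not be seen and lengths are compared within this range only. It made up 51.3% of the member reads with DMSO and 49.9% with SB431542, beside 49.5% and 49.1% of all 15 to 17 nt reads. U3 reads were longer, with 67.1% and 61.1% of 17 nt, and Snora reads were seldom of 15 nt, in 9.66% and 9.72%. Snord reads were spread more evenly, with 28.6% and 27.6% of 15 nt and 40.4% and 37.1% of 17 nt. Without U3 the 17 nt share of the members was 42.7% and 44.1%.

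Between the libraries, ratios were described for the 24 genes and 13 groups with at least 20 reads over both libraries; 154 genes with a kept sequence fell short of that. No gene was at least 2-fold higher with SB431542, where 6.35% of all 441 genes were, and 2 were at least 2-fold lower, where 15.2% of all genes were. The 2 genes are Snord93 and Mir3096, which share their reads, so they count as 1 of the 13 groups. With edgeR TMM factors 4 of the 13 groups were at least 2-fold lower, and with DESeq2 size factors 7. These factors shift every log2 ratio, of members and of all other genes, by -0.49 and -0.61. They were estimated from counts of 10066 genes that held only 206762 reads with DMSO and 93136 with SB431542. The share of all 441 genes past 2-fold was not counted on these scales, so the 4 and 7 have no background beside them. The median log2 ratio was -0.35 over the 24 genes, -0.45 over the 13 groups and -0.17 over the 441. The 24 genes include the U3 copies, which hold divided parts of shared reads, and -0.35 is the value that Rnu3b1 to Rnu3b4 have in common. All 13 groups lay below 0, from -1.35 to -0.05, beside 55.8% of the 441 genes and 56.9% of all 4556 sequences with at least 20 reads. The interval lay below 0 for 3 of the groups, U3, Snord118 and Snord93, and the share of all genes with such an interval was not counted. Of the 21 single fragments with at least 20 reads, 3 were at least 2-fold lower and 0 at least 2-fold higher, beside 16.5% and 7.57% of all 4556 sequences with as many reads. After the GC correction 10 of the 13 groups lay below 0, with a median of -0.10, and Snora44, Snord118 and Snord89 lay above 0. The share of all genes below 0 was not counted after this correction.

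**Figure D5:**
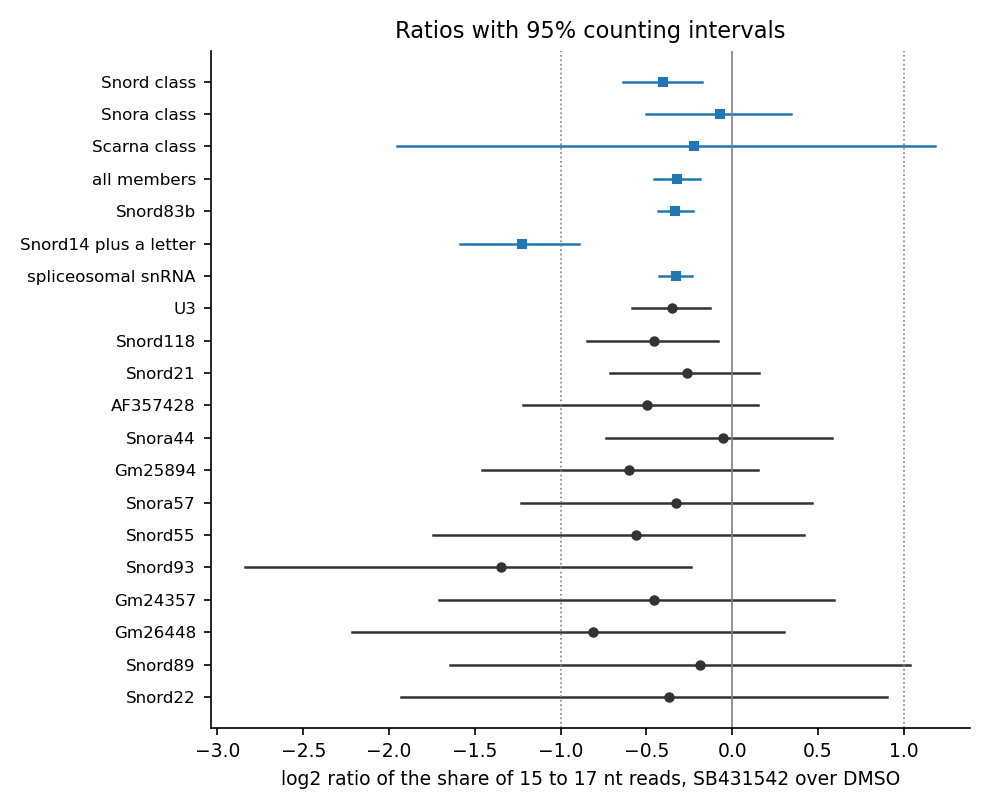
Log2 ratio of the share of 15 to 17 nt reads, SB431542 over DMSO, with 95% exact conditional binomial intervals, for sums (blue squares) and for the 13 groups with at least 20 reads (black circles); the solid line is 0 and the dotted lines are 2-fold. The members as a whole, at -0.32, lie beside Snord83b and the spliceosomal snRNAs, both at -0.33, and Snord93 at -1.35 is the group farthest from 0.

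Some genes with fewer reads leaned to one library, and they are given as counts. Snord88a and Snord88c, which share fragments and lie with Gm26247 and Gm23991 on chromosome 7, had 11 reads with DMSO and 1 with SB431542, mostly at the 3′ end. Gm26247, from the same 2410002F23Rik locus, had 5 and 7 reads. Snord23, from Nop53, had 4 and 8 reads, 11 of 12 at the 3′ end, with a log2 interval from 0.04 to 4.12. Gm24016, in the ribosomal protein gene Rps20, had 13 and 2 reads, and Snord73a, in Rps3a1, had 15 and 4, all at the 5′ end. These 5 sets were picked after their values were seen.

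On a list of 6 RNAs described as sources of small RNAs in other cells, 5 were annotated and 4, Snord93, Snord88a, Snord88c and Snord95, had reads, with a sum of 49 with DMSO and 7 with SB431542 (log2 ratio -1.79, interval -3.26 to -0.72). The list sum is mostly Snord93. By host gene, the 8 snoRNAs annotated in Snhg1 had 81 and 32 reads in all, the 4 of Snhg12 had 68 and 33, and the 9 of Gas5 had 12 and 6. The 4 snoRNAs of Rpl13a had 4 and 3 reads.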

How the data were processed

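The authors deposited a count of reads for each distinct sequence, with its length and no normalization. The files used hold sequences of 3 to 17 nt, of which those of 15 to 17 nt were analysed here. Library preparation followed an Illumina TruSeq RNA kit per the labels' protocols. How reads were trimmed, selected and aligned is not given in the sources used here. Nothing here relies on mm9, which the submitters' processing notes list with no stated role.

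These were matched in full to GENCODE M21 transcripts (GRCm38). A sequence took the first class of Snord, Snora and Scarna among its gene names, else other names; 40 sequences matched names of different classes. Reads of a shared sequence were divided equally among its genes. Log2 ratios used the 15 to 17 nt reads as total and a pseudocount of 0.5 read, for genes with at least 20 reads. No ratio is given where both libraries held at most 3 reads. Intervals are 95% Clopper-Pearson (shares) or exact conditional binomial (ratios), and no read carried a molecular identifier. The genes named were the 10 most abundant Snord, 10 Snora, 5 Scarna and 3 of other names, and the 5 highest and 5 lowest ratios; further genes were named after their values were seen. Members and lists were chosen with earlier results of these data known.

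On simulated data for SB431542 against DMSO, all 200 fragments drawn from 1552 RNAs returned to their place, 123 of them under a single name. The fragments were searched in the sequences they were cut from, so this checks the search alone. Of 67 genes simulated 4-fold lower, 63 were called 2-fold lower, as were 1 of 133 unchanged genes, and 2 unchanged genes were called higher. These counts were drawn with counting error alone, without differences between cultures or in GC content. They therefore do not measure how often a 2-fold difference would arise between 2 untreated cultures. Python 3.11.15 with numpy 2.4.6, pandas 2.3.3, scipy 1.17.1 and matplotlib 3.10.9 was used, and R 4.3.3 with edgeR 4.0.16 and DESeq2 1.42.0 for scaling factors. Alternatives changed the scale, GC content, set-aside rule, length, read minimum, pseudocount, sharing and end window.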

Additional observations from a re-analysis of the deposited data

How the results depend on the processing

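The log2 ratio of all members stayed below 0 under each of 11 alternatives, from -0.94 to -0.014. It was -0.81 with edgeR TMM factors (Snord -0.89, Snora -0.56, other names -0.81), -0.94 with DESeq2 size factors (-1.02, -0.68 and -0.93), -0.014 after the GC correction (Snord -0.011, other names -0.052) and -0.080 over distinct sequences with the DMSO library thinned (Snord -0.14, other names -0.027). The other settings left these ratios within their counting intervals.

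Genes at least 2-fold lower, 2 as reported, numbered 7 with TMM factors, 10 with DESeq2 factors, 1 after the GC correction, 1 when genes that share sequences were joined, and 24 with no read minimum. The TMM and DESeq2 factors shift every log2 ratio by -0.49 and -0.61. The share of all genes past 2-fold was not counted under any of these alternatives. They numbered 0 with a pseudocount of 5, where Snord93 stood at -0.56 and Mir3096 at -0.45. They also numbered 0 with the DMSO library thinned, a minimum of 50 reads, or shared sequences left out, where both genes fell below the read minimum; in the thinned library their log2 ratios were -1.84 and -1.47. Genes at least 2-fold higher, 0 as reported, numbered 3 with a minimum of 10 reads and 45 with none. The counts with no minimum, 24 lower and 45 higher, include genes with at most 3 reads in both libraries. With the pseudocount and the unequal depth, 1 SB431542 read against 0 counts as 2-fold higher. In contrast, 1 DMSO read against 0 does not count as 2-fold lower, so the 24 and 45 cannot be compared.

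The 5′ share over both libraries was 27.3% for all members, 22.5% for Snord, 50.7% for Snora and 25.2% for other names. Without the leading gene of each class these were 48.0%, 36.1%, 13.7% and 70.6%. Without U3 they were 42.0% for all and 70.6% for other names. Over distinct sequences they were 30.8%, 39.4% and 26.5% for the first 3, under the stricter set-aside rule 24.6% (all), 37.6% (Snora) and 22.1% (other names), with a 2 nt window 25.1% (all) and 17.5% (Snord), and at 17 nt 22.4% (other names). The 3′ shares, in the same order 20.5%, 34.4%, 26.3% and 10.7%, were 34.3%, 55.0%, 46.0% and 8.10% without the leading genes, 18.4%, 27.6%, 20.4% and 13.9% over distinct sequences, and 12.4%, 28.2%, 8.51% and 6.39% at 17 nt. They were 24.97% (all) and 8.10% (other names) without U3, 18.7% (all) with a 2 nt window, 22.7% (all) and 13.6% (other names) with a 10 nt window, and 32.9% (Snora) under the stricter rule. The 17 nt share, 50.9%, was 54.9% under the stricter rule, 43.6% over distinct sequences and 41.2% without the leading genes. Of 254 values for 24 named genes, 249 stayed within the reported interval. These are not the 24 genes with at least 20 reads. Where reads are few the intervals are wide, as for Snord15a (-7.37 to 1.09), so staying within them says little. The other 5 values are of Snord118 and Snord21, under edgeR or DESeq2 factors and, for Snord118, the GC correction. A change of sign was looked for only in named genes at least 2-fold apart, and 0 were found there. Among the rest some did change sign, as Snord118 did, from -0.45 to 0.23 after the GC correction. Leaving out U3 and joining genes were added after seeing the data. The cause of these changes was not tested.

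No paired analysis was possible because each group had 1 library, and for the same reason no replicate was left out. Depth limits the smaller RNAs: 3 reads stand for 3.03 RPM with DMSO and 5.80 RPM with SB431542.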
